A study of Cynodon dactylon with 10 samples.

Results

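Bermudagrass (Cynodon dactylon) is a perennial warm-season turf and forage grass. The contigs described here are those that unstressed leaves already expressed, followed into leaves of submerged seedlings. A contig is an assembled transcript sequence. It was counted as control-expressed when it had at least 1 RPKM (reads normalised to contig length and library size) in both control libraries. This rule took 23840 of the 28456 contigs, 83.8%. It left out contigs seen mainly in other groups and contigs low throughout, 1572 of which did not reach 1 RPKM in 2 libraries. Seedlings labelled wild type were grown for 3 weeks and then kept for 7 days either unstressed, as the control or under water, as the submergence treatment. Leaf RNA of each group was sequenced in 2 libraries. Another 6 libraries came from seedlings of the same age kept 7 days without water, with 400 mM NaCl or at 42 °C, and they entered the same model. Nothing in the labels ties the paired libraries to separate plants, and the p-values therefore reflect only library-to-library spread, possibly technical. The file pairs no contig with a gene name, so the leaf label could not be checked against leaf markers, and pathway lists were not tested.

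A submerged leaf exchanges gas slowly and can receive less light, so both oxygen and sugar supply can become limiting. Plants under water are known to use fermentation to regenerate NAD+, through pyruvate decarboxylase and alcohol dehydrogenase, and to sense low oxygen through group VII ethylene response factors, whose degradation needs oxygen. In rice, the SUB1A gene of this family is known for restricting growth and carbohydrate use during submergence. In a leaf under good light, transcripts of the photosynthetic apparatus usually make up much of the messenger RNA. None of these genes is identified in the file.

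Each library summed to between 751923 and 795078 RPKM, and 23755 to 25948 contigs reached 1 RPKM. No read totals are known. Low RPKM values move in steps worth 1 read, and these steps put library depth between 0.790 and 1.01 times that of control replicate 1. The submergence libraries stood at 1.01 and 0.893 on that measure and the second control library at 0.920. Over the control-expressed contigs, the replicate spread, as a robust SD of the log2 difference between the 2 libraries of a group, narrowed with level. It was 0.229 in the control and 0.199 under submergence for contigs under 5 RPKM in the control. It was 0.0488 and 0.0637 for contigs at 100 RPKM or more. In bulk leaf RNA, fewer cells of a type and less RNA per cell cannot be told apart.

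The first comparison asked how the transcripts of an unstressed leaf changed after 7 days under water. Falls of 2-fold or more outnumbered rises: 4290 control-expressed contigs were at least 2-fold lower and 2128 at least 2-fold higher. These are 18.0% and 8.93% of the set. Among all 26884 contigs in the fit, which include those nearly absent from the control, 16.0% were at least 2-fold lower and 16.5% at least 2-fold higher. The model was limma on log2(scaled RPKM + 1), with calls at an adjusted p under 0.05 (Benjamini-Hochberg over all 26884 contigs). A fold change is on that scale throughout and understates the change of low contigs. Because the set was chosen on the control libraries, contigs that could mainly rise were kept out by the rule, and these shares are not read against each other.

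At larger sizes too, falls outnumbered rises among the control-expressed contigs, while rises outnumbered falls among all contigs in the fit. At 4-fold, 1666 control-expressed contigs were lower and 554 higher, against 6.2% and 7.84% of all contigs in the fit. At 8-fold the counts were 581 lower and 169 higher, against 2.16% and 4.51%. At 32-fold, 61 were lower and 19 higher, against 0.227% and 1.41%. The rule keeps out contigs low in the control, which hold most of the large rises, so this contrast follows from it. The middle of the distribution stood near 0, with a median log2 change of 0.0046 and quartiles at -0.66 and 0.45. Over all contigs in the fit the median was 0.10. The lower tail was longer, since the 1st and 99th percentiles of the control-expressed contigs were -3.86 and 2.70.

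**Figure D1:**
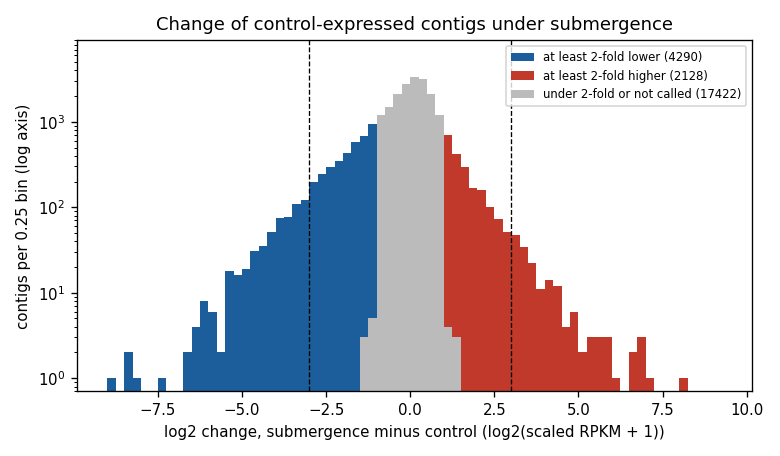
Histogram of the log2 change (submergence minus control, log2(scaled RPKM + 1)) of the 23840 control-expressed contigs, in bins of 0.25 with contig counts on a log axis. Blue and red bars are contigs called at least 2-fold lower (4290) and higher (2128), grey bars the other 17422, and dashed lines mark 8-fold; the tail of falls is fuller than the tail of rises.

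Most control-expressed contigs moved by little. Limma called 17769 of them without a size limit, 74.5%, against 75.6% of all contigs in the fit. Of these, 8722 were higher and 9047 lower, where 41.8% and 33.8% of all contigs were called in those directions. A group of 11351 contigs was called but changed by under 2-fold, and 6071 were not called. In the scaled values, both submergence libraries lay above both control libraries for 10436 contigs, against 48.5% of all contigs in the fit. They lay below both for 10391, against 39.0%.

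The balance at 2-fold rested on whether libraries were scaled. Scaling by a trimmed mean of log ratios divided the submergence libraries by 1.095 and 1.099 and the control libraries by 0.915 and 0.908. With RPKM as deposited, without scaling, the median log2 change was 0.24 for the control-expressed contigs and 0.33 for all contigs in the fit. The shift of a single contig depended on its level. Of the control-expressed contigs, 3244 were then at least 2-fold higher and 3425 lower. Falls made up 51.4% of the changes of that size instead of 66.8%. Calls without scaling were counted for the control-expressed contigs only, so no share over all contigs stands beside them. With median-ratio scaling, upper-quartile scaling and scaling on these contigs alone, falls made up 67.5%, 68.7% and 64.2%. Without scaling and without a size limit, 11792 were called higher and 7016 lower. The excess of falls at 8-fold kept its direction, with 469 lower and 216 higher.

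Falls were most frequent among the most abundant contigs. Classed by the mean RPKM over all 10 libraries, 83 of the 141 contigs at 500 RPKM or more were at least 2-fold lower and 11 higher, and their log2 changes had a median of -2.09. Of the 996 with 100 to 500 RPKM, 380 were lower and 114 higher, with a median of -0.43. At 20 to 100 RPKM, 1338 of 6667 were lower and 621 higher. At 5 to 20 RPKM, 1784 of 11698 were lower and 1111 higher. Under 5 RPKM, 705 of 4338 were lower and 271 higher, with a median of -0.09. Part of this order is built into the scale, on which a contig with 1 RPKM in the control can fall by at most 1 log2 unit. The rule also keeps contigs low in the control out of every class, whatever their level under submergence. Shares over all contigs of a class were not computed, so the excess of falls in a class is a description of this set.

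Other measures of level gave the same order above 20 RPKM and differed at the low end. A second measure was the mean of the 6 drought, salt and heat libraries, which enter the comparison only through the shared spread. Salt leaves lay near the control, at a root mean square log2 difference of 0.323 against 1.182 for submergence. High levels by this measure thus still favour high control levels. By it, 61.5% of the 148 contigs at 500 RPKM or more were at least 2-fold lower and 5.41% higher. The share that was lower was 40.1% at 100 to 500 RPKM, 21.1% at 20 to 100 RPKM, 15.1% at 5 to 20 RPKM and 14.3% under 5 RPKM. The share that was higher was 7.81%, 7.90%, 8.91% and 10.8% in these classes. Classed by the control mean, which also enters the change, the shares were more extreme: 75.7% of 173 contigs were lower at 500 RPKM or more, and 52.6% of 888 at 100 to 500 RPKM. Under 5 RPKM by that measure, 459 of 5788 were lower and 963 higher, an order that the other measures did not show. Without scaling, the classes by control level had 72.8%, 47.4%, 21.1%, 11.7% and 5.94% of contigs lower, from the highest class to the lowest.

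**Figure D2:**
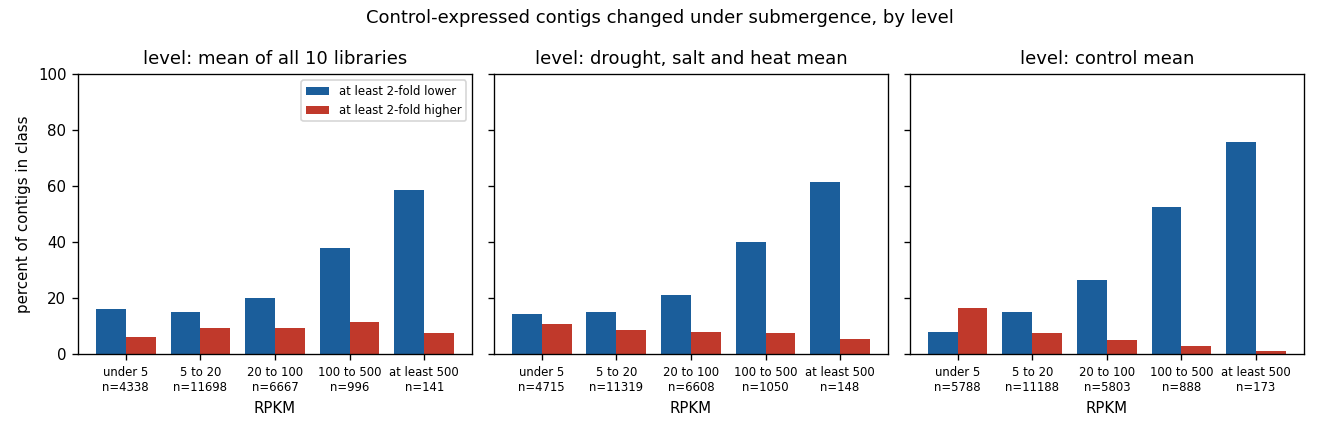
Percent of control-expressed contigs at least 2-fold lower (blue) or higher (red) under submergence, by level class in RPKM, with the number of contigs n under each class. The level is the mean of all 10 libraries on the left, of the drought, salt and heat libraries in the middle and of the control on the right; in each the blue bar is tallest at 500 RPKM or more, at 58.9%, 61.5% and 75.7%.

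The 100 control-expressed contigs with the highest control levels are given as a description, since choosing them on the control favours a lower share in every other group. They made up 24.9% and 25.2% of the RPKM of the control libraries, and 9.47% and 9.32% of that of the submergence libraries. Both submergence values lay below both control values, but 2 libraries against 2 cannot reach an exact permutation p under 0.05. Of the 100, 78 were at least 2-fold lower, 46 at least 8-fold lower and 2 at least 2-fold higher. Droughted leaves kept 13.1% ± 0.270 in these contigs, heated leaves 14.1% ± 0.0185 and salt-treated leaves 22.8% ± 0.159 (SD, n = 2 each). Against the control, which all 4 comparisons share, their median log2 change was -2.74 under submergence, -1.33 under drought, -1.35 under heat and -0.29 under salt.

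Of the 100 contigs highest in the control, 36 were among the 100 highest under submergence. The numbers shared with the control were 49 for drought, 55 for heat and 89 for salt, and no test was made between the stresses. The 2 control libraries shared 98 of their 100, and the 2 submergence libraries 96. Of the 1000 highest, the control shared 498 with submergence, 592 with heat, 718 with drought and 892 with salt, and the 2 libraries of a group 979 and 969. The 64 contigs that entered the first 100 were picked for being higher in rank under submergence, and their median scaled levels of 254 RPKM in the control and 724 RPKM under submergence describe that choice. Of these, 35 were called at least 2-fold higher, and 18 had ranked beyond 1000 in the control. In drought, salt and heat leaves their medians were 310, 286 and 301 scaled RPKM.

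Summed over contigs, the losses were concentrated in few. The contigs that were lower in scaled RPKM lost an amount equal to 45.5% of the control total, and 158 of these 11870 contigs, 1.33%, made up 50% of the loss. The contigs that were higher gained an amount equal to 19.7% of the control total, and 390 of these 11970 made up 50% of the gain. With RPKM as deposited, without scaling, the loss was 40.7% and the gain 30.0% of the control total, with 126 of 9202 and 605 of 14631 contigs making up 50%. As shares of deposited RPKM, the control-expressed contigs together made up 99.9% of the control RPKM and 92.3% ± 0.0534 of the submergence RPKM (SD, n = 2). They held 99.1% to 99.7% in the other stress groups. The rest, 7.68% ± 0.0534 under submergence, lay in contigs that the rule left out.

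The fallen and the risen contigs changed places as shares of the library. The 4290 at least 2-fold lower made up 47.2% and 47.3% of the control libraries' RPKM and 10.4% and 10.5% in the submergence libraries. The 2128 at least 2-fold higher held 3.88% and 3.86% in the control and a mean of 20.06% ± 0.0840 under submergence (SD, n = 2). The 17422 other control-expressed contigs held 48.7% in both control libraries and 61.9% and 61.7% under submergence. As these sets were chosen by this comparison, their shares in the control and submergence libraries are a description.

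**Figure D3:**
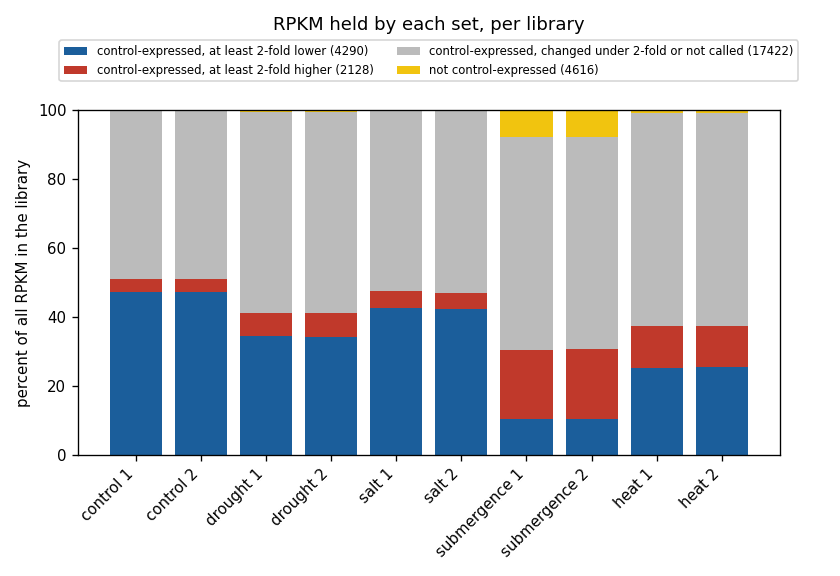
Percent of all deposited RPKM held by 4 sets of contigs in each of the 10 libraries, 2 per group, as stacked bars. The set at least 2-fold lower under submergence (blue) goes from 47.3% in the control to 10.4% of the RPKM, and contigs outside the rule (yellow) reach 7.68% under submergence.

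A total of 4 contigs were named by rule, as the file gives identifiers only. The rule took the largest rise and the largest fall in log2 change among contigs that are alone in their subcomponent, and the largest rise and fall in RPKM. A subcomponent holds the contigs that share an identifier up to its last part, and reads may be split among them. The identifiers are not paired with gene names, so no function is given.

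The largest log2 rise of a contig alone in its subcomponent was that of comp51124_c0_seq1. It had 6.74 and 7.49 RPKM in the control libraries and 1199 and 1243 RPKM in the submergence libraries. It had 53.1 and 56.9 RPKM under salt, 1.35 and 1.70 under drought and 0.68 and 0.20 under heat. Submerged leaves were far above all other libraries, and salt leaves were above the control without overlap. The log2 change was 6.98 (SE 0.14, adjusted p = 7.27e-10 by limma), and the scaled level was 143 times that of the control. The other 3 contigs that share the first part of its identifier were also control-expressed, and all 3 were at least 2-fold higher, with log2 changes of 6.03 to 7.20.

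The largest rise in RPKM was that of comp47477_c0_seq1, which became the most abundant of the control-expressed contigs under submergence. It went from 156 and 152 RPKM in the control to 6793 and 6718 RPKM under submergence. Levels in the other stresses were below the control in every library, at 14.9 and 18.1 RPKM under drought, 88.1 and 103 under salt and 3.04 and 2.0 under heat. The log2 change was 5.18 (SE 0.14, adjusted p = 4.07e-09 by limma), or 36.5 times the scaled control level. The other 3 contigs of its subcomponent were higher too, by log2 changes of 1.47 to 4.02, and their control levels ran from 4.57 to 1433 RPKM.

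The largest log2 fall of a contig alone in its subcomponent was that of comp48974_c0_seq1. It had 730 and 728 RPKM in the control libraries and 0.76 and 0.64 RPKM in the submergence libraries. Under heat it had 0.20 and 0 RPKM, under drought 10.49 and 10.02 RPKM, and under salt 427 and 412 RPKM. The groups did not overlap. Heat had lower values than submergence, but both were under 1 RPKM, where a step of 1 read weighs most, so their order is uncertain. The log2 change was -8.93 (SE 0.08, adjusted p = 2.03e-11 by limma), and the log2 difference, submergence minus heat, was 0.59 (adjusted p = 0.000172 by limma). The spread behind the second p-value is shared with groups at up to 730 RPKM and may be too narrow for values under 1 RPKM. The other 3 contigs with the same first part of the identifier had 310 to 714 RPKM in the control and 0 to 2.06 RPKM under submergence, with log2 changes of -8.42 to -8.11.

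The largest fall in RPKM was that of comp51207_c0_seq1. It had 5273 and 5282 RPKM in the control and 474 and 479 RPKM under submergence, 7.50% of the scaled control level. The log2 change was -3.73 (SE 0.03, adjusted p = 2.43e-11 by limma). Salt leaves had 5097 and 5108 RPKM, drought leaves had 1559 and 1596 RPKM and heat leaves 1257 and 1221 RPKM. Submerged leaves had the lowest level of the 5 groups, with no overlap. The 1 other contig sharing the first part of its identifier went from 4902 to 404 RPKM on average, a log2 change of -3.87.

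**Figure D4:**
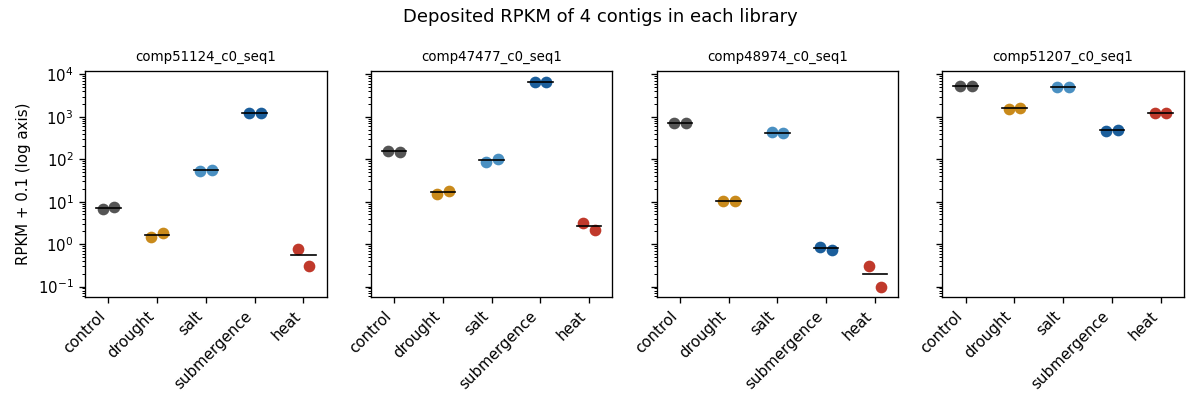
Deposited RPKM of the 4 named contigs in each library (points, 2 per group) with the group mean (black line), on a log axis after adding 0.1 RPKM. The first 2 contigs are highest in the submergence libraries, at 1199 to 1243 and 6718 to 6793 RPKM, comp48974_c0_seq1 is under 1 RPKM there and under heat, and comp51207_c0_seq1 is lowest under submergence.

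**Figure D5:**
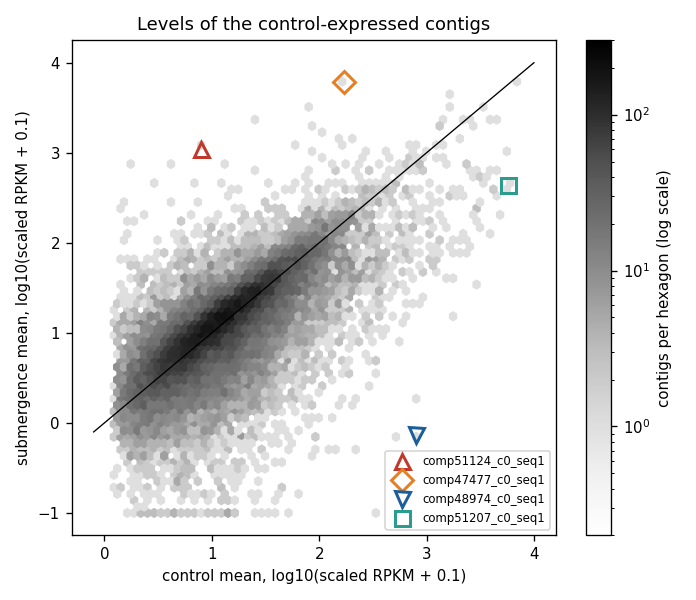
Mean submergence level against mean control level of the 23840 control-expressed contigs, both as log10(scaled RPKM + 0.1), with contigs per hexagon as grey shade and the line of equal level. The 4 named contigs are marked, and at control levels above 100 RPKM (2 on the axis) the bulk of hexagons lies below the line.

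The most changed contigs were chosen by their difference between control and submergence, so levels of other groups between these are a description. For the 581 contigs at least 8-fold lower, the median scaled RPKM was 53.8 in control leaves and 2.50 in submerged leaves. Their median was 46.3 under salt, 41.8 under drought and 13.6 under heat. Heat had a lower mean than submergence for 107 of them, drought for 11 and salt for 0. Of the 581, 201 had at least 100 scaled RPKM in the control and 72 at least 500.

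The 169 contigs at least 8-fold higher came mostly from low levels. Their median was 5.01 scaled RPKM in the control and 76.2 under submergence, and 84 had under 5 in the control while 14 had 20 or more. Their median was 10.5 under drought, 6.98 under salt and 18.7 under heat. Heat had a higher mean than submergence for 18 of them, drought for 10 and salt for 1. A subset of 15 was under 1 scaled RPKM in both drought and heat, and comp51124_c0_seq1 was not in it. These 15, set apart after their values were seen, stood at medians of 160 scaled RPKM under submergence, 4.25 under salt and 2.24 in the control. With only contigs that also had at least 1 RPKM in every drought, salt and heat library, 22159 in number, 134 were at least 8-fold higher and 485 lower. At 2-fold these counts were 1943 and 3738.

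Some contigs expressed in unstressed leaves were not detected under water. In both submergence libraries 45 control-expressed contigs were listed at 0, with control levels of 1.31 to 310 RPKM and a median of 5.59 RPKM. Leaving out either submergence library gave 82 or 84 contigs at 0 in the other. Both heat libraries listed 82 at 0, both drought libraries 14 and both salt libraries 0. Of the 45, 8 were also at 0 in both heat libraries and 3 in both drought libraries. A wider set of 140 went from at least 5 RPKM in the control to under 0.5 RPKM under submergence, from a median of 11.02 RPKM.

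Contigs just inside and just outside the rule are set side by side here without a test. The 148 whose lower control value was 1 to 1.1 RPKM had median levels of 1.20 RPKM in control leaves and 2.04 RPKM in submerged leaves, and 44 were at least 2-fold higher and 4 lower. The 145 at 0.9 to 1 RPKM had medians of 1.13 and 2.25 RPKM, and 39 were at least 2-fold higher and 3 lower. When the contigs were chosen on 1 control library and tested with the other alone, 2229 and 2236 were at least 2-fold higher and 4295 and 4292 lower. For these fits the lone control library was assumed to vary like the other groups.

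Submerged leaves were next compared with the other stressed leaves, in contrasts that hold no control library, on contigs still chosen by the control. Against drought, 4115 control-expressed contigs were at least 2-fold lower in submerged leaves and 2642 higher, where 15.7% and 17.9% of all contigs in the fit were called. Against salt, 4144 were lower and 1981 higher, against 15.5% and 15.6%. Against heat, 3567 were lower and 2879 higher, against 13.8% and 18.4%. Without scaling the counts were 3477 lower and 3409 higher against drought, 3511 and 2663 against salt, and 3502 and 3018 against heat. The rule keeps out contigs low in the control, so these counts are not read against the shares of all contigs. Over all contigs in the fit, with scaling, rises of 2-fold or more outnumbered falls in each contrast, narrowly against salt.

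Classed by control level, falls were most frequent in the highest class in these contrasts too. Choosing contigs high in the control favours high levels in groups near it, such as salt. These shares are therefore a description and not separate support. Of the 173 contigs at 500 RPKM or more in the control, 134 were at least 2-fold lower in submerged than in salt-treated leaves, 98 than in droughted leaves and 89 than in heated leaves. The numbers at least 2-fold higher were 2, 11 and 18. Their median log2 difference was -2.22 against salt, -1.29 against drought and -1.03 against heat. At 100 to 500 RPKM these medians were -1.06, -0.92 and -0.35, and at 5 to 20 RPKM they were 0.07, 0.03 and 0.000035. Under 5 RPKM, 835 of 5788 contigs were higher than in salt-treated leaves and 505 lower, whereas 765 were higher than in heated leaves and 812 lower.

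Across all control-expressed contigs, submergence and heat stood about equally far from the control. The root mean square difference in log2(scaled RPKM + 1) between group means was 1.182 for submergence, 1.201 for heat, 0.843 for drought and 0.323 for salt. The 2 libraries of a group differed by 0.184 to 0.213. Submerged leaves were 1.13 from salt-treated, 1.16 from heated and 1.23 from droughted leaves. Contigs outside the rule held 7.68% of the submergence RPKM and 0.853% of the heat RPKM, and they do not enter these distances. In 4996 contigs both submergence libraries lay above all 8 others, against 26.7% of all contigs in the fit. In 5240 both lay below all 8 others, against 19.7%.

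The 23840 contigs fell into 15951 subcomponents, of which 11405 held 1 control-expressed contig and 4546 held 2 to 17. In 527 of the 4546 every such contig was at least 2-fold lower, and in 233 every one was at least 2-fold higher. Taking the 2 contigs per subcomponent with the highest level under drought, salt and heat, Pearson's r between their log2 changes was 0.815 and Spearman's rho 0.763, across 4546 pairs. The median absolute difference within a pair was 0.27 log2 units. The contigs of a pair share libraries and possibly reads, so this is a description.

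Opposite changes within a subcomponent were counted among its control-expressed contigs. Of the 4546 subcomponents, 650 held at least 1 contig that rose by 2-fold or more, and 1143 at least 1 that fell. In 72, 1.58% of the 4546, both occurred. Contigs outside the rule were not counted, so opposite changes that involve them are missed. These 72 had a median of 5 control-expressed contigs. In 57 of them the summed level of these control-expressed contigs changed by under 2-fold. In 9 it was at least 2-fold higher and in 6 at least 2-fold lower. Other contigs of the subcomponent did not enter the sum. Reads may be split among such contigs, so their single values are uncertain. Of the 169 contigs at least 8-fold higher, 72.2% shared a subcomponent with another contig of the table, and of the 581 at least 8-fold lower 53.5% did. Over all control-expressed contigs this share was 52.9%.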

How the data were processed

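Leaf RNA was measured in 10 libraries, 2 for each of 5 groups. The labels' protocols give Qiagen's RNeasy kit for RNA isolation and standard Illumina library preparation. Tools named in the submitters' processing notes, with no role stated, are HTSeq 0.6.1, DESeq 1.18.0, TopHat2 2.0.12 and Bowtie2 2.2.3. The assembly is not given in the sources used here. Per the file headers the authors deposited RPKM, 1 column per library with 2 decimals, although the file is named for read counts. Absolute depth is therefore unknown and precision rests on the replicate spread.

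Libraries were scaled by an unweighted trimmed mean of log ratios, with 30% of ratios and 5% of levels trimmed from either end. The fit took contigs that reached 1 RPKM in 2 libraries or more, as log2(scaled RPKM + 1), with group as the only term, in limma 3.58.1 with a variance trend (R 4.3.3, 5 residual degrees of freedom). That kept 26884 contigs, every control-expressed contig among them. Python 3.11.15 with pandas 2.3.3, numpy 2.4.6 and matplotlib 3.10.9 gave levels, shares, ranks and figures, and shares use RPKM as deposited. The fit was tested on simulated data for submergence against control, on 24576 contigs. It recovered 68% of contigs changed by 0.5 log2 units and 100% of those changed by 1, and 5.64% of its calls were false. The simulation gave every group the control levels, with normal noise at the spread of the control pair, and changed only 50 contigs per size. The real data changed in far more contigs, so the scaling was not tested. The 5.64% is not the error rate of the reported calls. Named contigs followed the rule given with them. The control-expressed set, the rule for names and the tests were chosen with earlier results of these data known. Alternatives covered scaling, pseudocount, filters, the rule for control-expressed contigs, the libraries and contigs in the fit, a replicate block, the variance trend, the thresholds and each library left out. One that asks for 1 RPKM in every drought, salt and heat library was chosen after seeing the data.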

Additional observations from a re-analysis of the deposited data

Results flagged for a closer look

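Contigs outside the rule carried signal under submergence that the comparisons did not use: the 4616 contigs that were not control-expressed held 7.68% ± 0.0534 of all RPKM in the submergence libraries, against 0.146% ± 0.0042 in the control (SD, n = 2 each).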

How the results depend on the processing

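Against the control, falls of 2-fold and of 8-fold outnumbered rises under every alternative run, and the 4 named contigs kept their direction and call in each alternative that refitted them. The deposited values hold no read counts, so depth limits single values under about 5 RPKM most, where replicates spread most. Without scaling, 3244 control-expressed contigs were at least 2-fold higher. Over all control-expressed contigs, the median log2 change was 0.24 without scaling, -0.0066 with median-ratio and -0.024 with upper-quartile scaling. It was 0.050 with scaling on these contigs alone. It was 0.011 and 0.010 when choice and test used different control libraries, and 0.024 with 1 RPKM asked of every drought, salt and heat library. A pseudocount of 0.1 RPKM gave 977 contigs at least 8-fold lower. Limma's treat test against a 2-fold change gave 1399 higher than the control, 1702 higher than drought and 1276 higher than salt. Asking for 0.5, 2 or 5 RPKM in both control libraries gave medians of 0.018, -0.012 and -0.068 and RPKM shares under submergence of 93.5%, 91.1% and 86.4%. At 5 RPKM, 1104 contigs were at least 2-fold and 68 at least 8-fold higher than the control, 1655 and 1090 at least 2-fold higher than drought and salt, 40 subcomponents held opposite changes and 22 contigs were at 0. With 1 contig per subcomponent, 1410 contigs were at least 2-fold and 100 at least 8-fold higher than the control, and 1573, 1240 and 1703 at least 2-fold higher than drought, salt and heat. That setting leaves no opposite changes to count.

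Leaving out each control or submergence library gave 2108 to 2159 contigs at least 2-fold higher and 4257 to 4313 lower. The median ranged from 0.0037 to 0.0068, the RPKM share from 92.3% to 92.7% and the contigs at 0 from 46 to 84. For the share and the contigs at 0, leaving out a control library also meant choosing the contigs on the other control library alone. With the replicate block, 2130 were at least 2-fold higher and 4290 lower, and no other count of calls moved by over 1.5 times. Same-numbered libraries of control and submergence had deviations correlated at 0.0415, and over all pairs of groups at -0.0434 to 0.141, so the numbers were not taken to pair them. A fit of only the control and submergence libraries holds no other stress, so it gave no comparison with one.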
